A study of Mus musculus with 8 samples.

Results

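The liver X receptors (LXR) and 3 of their target genes were followed in sorted mouse thymocytes with and without the histone deacetylase Hdac3. The 5 genes, chosen by name, were the receptor genes Nr1h2 (LXRβ) and Nr1h3 (LXRα), the sterol efflux transporter genes Abca1 and Abcg1, and Mylip, and all 5 were among the 23278 genes listed. Per the labels, the mice were C57BL/6, the controls carried wild-type Hdac3 alleles (WT), and the Hdac3KO animals carried floxed alleles with Cre driven by LCK. Cells of every group were sorted as GFP+ CD4+CD8+ thymocytes. DP1 cells had low CD5 and low TCRβ, and DP2 cells had high CD5 and intermediate TCRβ. Genotype and stage together gave 4 groups of 2 libraries each, 8 in all, made from pools of rRNA-depleted total RNA. The LCK promoter directs Cre to developing T cells. The labels do not say what the GFP reports or whether the WT mice carry Cre.

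LXRs are nuclear receptors for oxysterols, oxidised forms of cholesterol, and bind DNA as heterodimers with retinoid X receptors (RXR). Without a ligand they hold the corepressors NCoR or SMRT, whose complexes contain HDAC3, at their target genes, and a ligand replaces these with coactivators. Their targets carry cholesterol out of the cell, lower its uptake and raise fatty acid synthesis, and in lymphocytes LXRβ is the main form and is known for restraining proliferation. The question put to these data was whether LXR targets were higher without Hdac3, and at which stage.

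The receptors recognise a direct repeat of 2 half-sites spaced by 4 bases (DR4), so the 250 bases before the start of each gene were searched for it on both strands. RefSeq promoter windows on GRCm38.p6, the assembly called mm10, were at hand for 4 of the 5 genes, Nr1h2, Nr1h3, Abca1 and Mylip, and not for Abcg1. The consensus, AGGTCA repeated after 4 free bases, lay in none of the 4 and in 5 of 32851 windows (0.0152%). A relaxed form, GGTNA followed by 5 free bases and GGTCA, drops the first base of the repeat and leaves free the first base of the second half-site and one more base of the first. It was chosen with the Abca1 element in view, lay in 58 windows (0.177%), and matched Abca1 alone among the 4. These 3 windows are shown because they differ in these letters, with matches in capitals. In Abca1 (chr4:53159896-53160145, minus strand) the capitals are the relaxed DR4, which reads on the opposite strand, and the TATA box letters TATAAA. Those of Mylip (chr13:45389492-45389741, plus strand) are TATAAA, and those of Nr1h2 (chr7:44553966-44554215, minus strand) are 5 matches to the ETS factor core CCGGAA, of which a pair overlap. TATAAA lay in 12.4% and CCGGAA in 12% of windows, both strands counted.
Abca1: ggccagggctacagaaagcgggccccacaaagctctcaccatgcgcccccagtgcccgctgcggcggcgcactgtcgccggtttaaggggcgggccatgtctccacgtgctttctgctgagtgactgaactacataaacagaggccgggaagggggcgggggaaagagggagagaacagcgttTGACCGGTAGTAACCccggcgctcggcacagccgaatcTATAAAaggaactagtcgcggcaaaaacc
Mylip: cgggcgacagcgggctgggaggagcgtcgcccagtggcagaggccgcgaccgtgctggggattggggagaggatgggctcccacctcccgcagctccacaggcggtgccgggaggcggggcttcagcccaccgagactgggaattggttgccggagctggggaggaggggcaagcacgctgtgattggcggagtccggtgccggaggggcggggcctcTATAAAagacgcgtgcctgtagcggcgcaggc
Nr1h2: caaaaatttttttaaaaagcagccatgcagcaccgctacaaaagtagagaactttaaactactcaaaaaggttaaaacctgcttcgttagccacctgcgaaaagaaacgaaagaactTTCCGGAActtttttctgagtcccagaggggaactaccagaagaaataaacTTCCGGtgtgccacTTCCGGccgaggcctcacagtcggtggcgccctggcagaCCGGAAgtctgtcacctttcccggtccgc
Among 63 of 85 LXR and sterol genes with a window, the relaxed DR4 lay in 3. Besides Abca1 these were the lipogenic LXR targets Fasn and Srebf1, and the matched letters, read along the repeat, are set side by side.
Abca1, chr4:53159948-53159962, 67 to 53 bases before the start: ggttactaccggtca
Fasn, chr11:120824758-120824772, 225 to 211 bases before the start: ggttactaccggtca
Srebf1, chr11:60210639-60210653, 182 to 168 bases before one of its starts: ggttactggcggtca
The Abca1 and Fasn words are the same, and a match is a description of letters, not of a bound receptor.

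The deposited values are 1 FPKM per gene and group (fragments per transcript length and sequencing depth) in 4 tables, each of which compares 2 groups. No value per library was used, so the spread between libraries cannot be shown, and depth per library is unknown. Unless called recomputed, a q is the one in the authors' deposited tables, a gene was called changed at a q of 0.05 or less, and the standard error (SE) after each log2 change was worked back from the deposited p. Each group rests on 2 libraries, which allows no exact test, and nothing says that they are separate animals, so q and SE cover a spread that may be technical. A recomputed q is a normal two-sided test with these SE, adjusted over all tested genes. Each table was scaled by itself, so the same group differs between tables, and the median gene with at least 10 FPKM in both groups lay on the log2 scale at -0.11 between the DP1 genotypes, 0.12 between the DP2 genotypes, -0.33 between the WT stages and -0.01 between the Hdac3KO stages. Hdac3 itself stood in the authors' deposited tables at 38.1 (WT) and 11.7 FPKM (Hdac3KO DP1), and at 29.7 and 15.4 in DP2. That left 0.307 of the WT level in DP1 (q = 0.000879) and 0.519 in DP2 (q = 0.0131), with both q from the authors' deposited tables. Hdac3 RNA was thus lowered and not absent, and cells without Hdac3 here means cells of the Hdac3KO genotype. The genotypes also differed in sex: the female RNA Xist was at 0.0945 and 208 FPKM, and the Y-linked Kdm5d at 20.01 and 0.264, in WT and Hdac3KO DP1 of the authors' deposited table, and DP2 went the same way. Sex and genotype cannot be told apart in these pools. None of the 5 genes lies on a sex chromosome.

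Nr1h2 was the LXR that these cells transcribed, and Nr1h3 was at about 1 FPKM or below. Nr1h2 (mm10 chromosome 7, 44549633 to 44553923, minus strand) lay between 26.8 and 50.03 FPKM over all 8 values of the authors' deposited tables. Nr1h3 (chromosome 2, 91184061 to 91195116, minus strand) lay between 0.492 and 1.04 FPKM there and was left untested by the authors in every table. The level of Nr1h2 was 27.2 to 72.0 times that of Nr1h3, and FPKM are per length, so these levels can be compared. LXRβ is the widely expressed form, while LXRα is typical of liver, fat and macrophages. Of the RXR partners, Rxrb was at 12.5 to 20.1 FPKM in the authors' deposited tables, Rxrg at 4.46 to 10.6 and Rxra under 1, untested throughout.

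**Figure D1:**
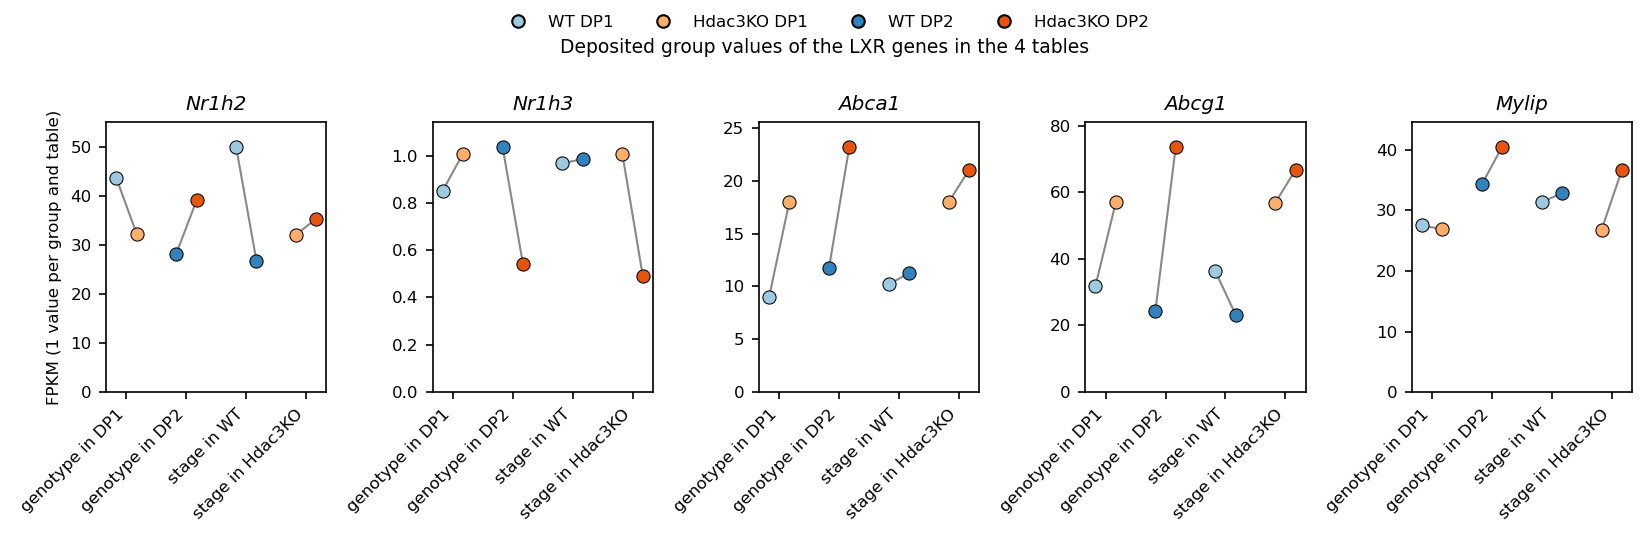
Deposited FPKM (vertical axis, from 0, its own scale for each gene) of the 5 genes in the 4 tables (horizontal axis); each point is the 1 value of a group, and a line joins the 2 groups that a table compares. Both Hdac3KO groups lie above both WT groups for Abca1 and Abcg1, while Nr1h3 stays near 1 FPKM or below.

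In DP1 cells the efflux genes were higher without Hdac3 and the receptor was not. Abca1 (chromosome 4, 53030789 to 53159895, minus strand), which loads cellular cholesterol and phospholipid onto apolipoprotein A-I, stood in the authors' deposited table at 8.97 (WT) and 18.03 FPKM (Hdac3KO). That was a 2.01-fold rise, 1.01 ± 0.27 on the log2 scale (q = 0.00207 in the authors' deposited table). Abcg1 (chromosome 17, 31057694 to 31117981, plus strand), which passes cholesterol to high-density lipoprotein, stood in the authors' deposited table at 31.9 and 57.0 FPKM, a 1.79-fold rise (0.84 ± 0.26, q = 0.00862). An rRNA-type gene, Gm25447, lies inside Abcg1 on the same strand, and how reads there were assigned is not known. Thus 2 of the 4 tested genes were higher and 0 lower, where the authors' deposited table called 10.7% of all tested genes higher and 12.9% lower. The median change of the 5 genes was 0.25, which is the value of the untested Nr1h3, beside -0.08 over all genes with at least 1 FPKM. The change of Abca1 lay above that of 92.0% and the change of Abcg1 above that of 89.0% of the 10511 genes tested. Relative to the median gene the changes were 1.12 and 0.95, and the calls over all genes then split into 1431 higher and 941 lower, beside 1120 and 1358 as deposited.

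Nr1h2 and Mylip were not called in DP1. Nr1h2 stood in the authors' deposited table at 43.7 (WT) and 32.3 FPKM (Hdac3KO) (-0.44 ± 0.25, q = 0.201), and the untested Nr1h3 was at 0.851 and 1.01. Mylip (chromosome 13, 45389742 to 45411940, plus strand), which encodes the ubiquitin ligase IDOL that sends lipoprotein receptors to degradation, stood in the authors' deposited table at 27.5 and 26.9 FPKM (-0.03 ± 0.25, q = 0.942). The interval of that difference was -0.52 to 0.45.

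Abca1 and Abcg1 are long genes, with longest transcripts of 10262 and 5832 bases, and the DP1 changes were refitted without their trend on transcript length. With that trend removed Abca1 was at 0.50 (recomputed q = 0.201) and Abcg1 at 0.61 (recomputed q = 0.0834), and neither was called. The DP1 call of Abcg1 also ended when p was taken from the deposited test statistic (recomputed q = 0.197).

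In DP2 cells the same 2 efflux genes were higher, and Abcg1 showed its largest difference of the 4 comparisons. Abcg1 stood in the authors' deposited table at 24.3 (WT) and 73.7 FPKM (Hdac3KO), a 3.03-fold rise (1.60 ± 0.39, q = 0.00134). Abca1 stood in the authors' deposited table at 11.7 and 23.2 FPKM, a 1.98-fold rise (0.98 ± 0.24, q = 0.00134). Both p-values were at 5e-05, the smallest that the tables hold, so the true p may be smaller. The deposited statistics, 3.70 for Abcg1 and 3.29 for Abca1, would give larger SE than those worked back from p. Again 2 of 4 tested genes were higher and 0 lower, where 6.44% of all tested genes were called higher and 4.32% lower. Here the 5 genes had a median of 0.47, which is the value of Nr1h2, not called, beside 0.08 over all genes. The change of Abcg1 lay above that of 97.9% and the change of Abca1 above that of 93.5% of the 10674 genes tested. With the length trend removed both calls remained, at 1.46 for Abcg1 (recomputed q = 0.00576) and 0.86 for Abca1 (recomputed q = 0.00772), and relative to the median gene they stood at 1.48 and 0.87. That scaling split the calls over all genes into 464 higher and 612 lower, beside 687 and 461 as deposited.

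The receptor and Mylip did not pass in DP2 either. Nr1h2 stood in the authors' deposited table at 28.2 (WT) and 39.1 FPKM (Hdac3KO) (0.47 ± 0.24, q = 0.219), opposite in sign to DP1. Mylip stood in the authors' deposited table at 34.3 and 40.5 FPKM (0.24 ± 0.23, q = 0.591, interval -0.22 to 0.70), and the untested Nr1h3 at 1.04 and 0.543.

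**Figure D2:**
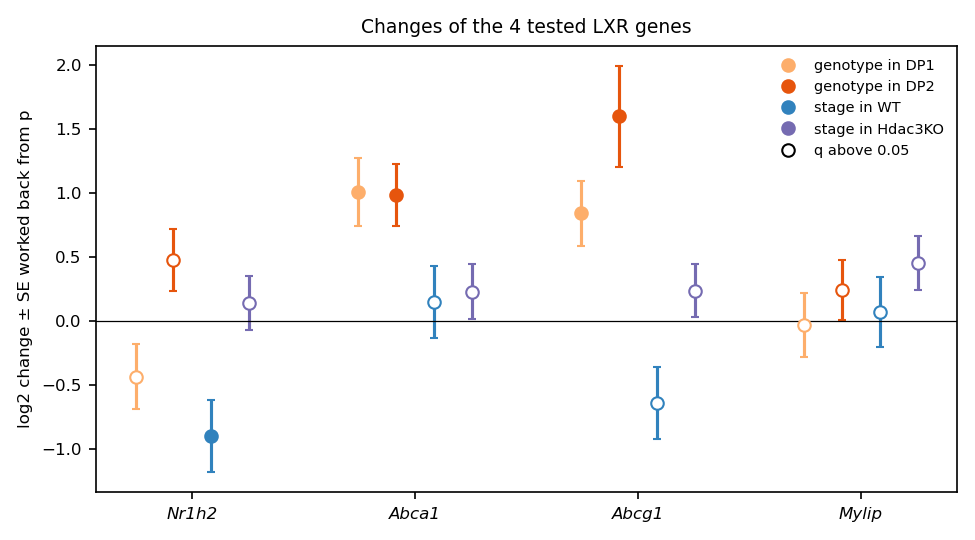
Log2 change (vertical axis) of the 4 tested genes in the 4 comparisons, Hdac3KO over WT or DP2 over DP1; points are the deposited changes, bars are ± 1 SE worked back from the deposited p, and open points have a q above 0.05. Abca1 and Abcg1 are filled in both genotype comparisons and open in both stage comparisons, and Nr1h2 is filled in the WT stages alone.

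**Figure D3:**
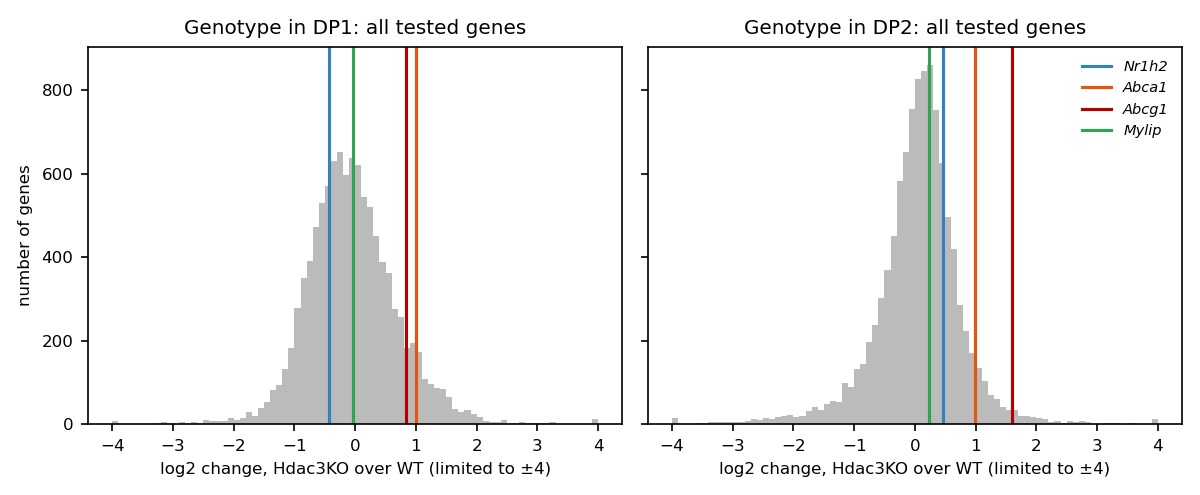
Number of genes (vertical axis) by log2 change of Hdac3KO over WT (horizontal axis, changes beyond ±4 drawn at the ends) for all tested genes in DP1 and DP2, with vertical lines at the 4 tested LXR genes. Abca1 and Abcg1 lie on the right shoulder in DP1, and Abcg1 lies farther out in DP2, above 97.9% of genes.

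From DP1 to DP2 in WT cells, Nr1h2 was called lower and no member was called higher. Nr1h2 stood in the authors' deposited table at 50.03 FPKM in WT DP1 and 26.8 in WT DP2 (-0.90 ± 0.28, q = 0.0114), which left 0.535 of the DP1 level. The median gene was itself at -0.33 here, and relative to it Nr1h2 stood at -0.57 (recomputed q = 0.147). The call also ended with the trend on length (-0.35, recomputed q = 0.461) or on GC content removed (-0.27, recomputed q = 0.611), and from the deposited statistic (recomputed q = 0.316). So 1 of 4 tested genes was called lower and 0 higher, where 16.8% of all tested genes were lower and 5.56% higher. These were 1818 and 603 genes, and relative to the median gene 703 and 1181. Abcg1 did not pass, with 36.3 FPKM in WT DP1 and 23.2 in WT DP2 per the authors' deposited table (-0.65 ± 0.28, q = 0.0793). Abca1, at 10.2 and 11.3 FPKM, and Mylip, at 31.4 and 32.8, did not pass either (q = 0.748 and 0.894, from the authors' deposited table).

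None of the 4 tested genes was called between stages in Hdac3KO, where the authors' Cuffdiff test called 1.78% of all tested genes higher and 4.65% lower. By unadjusted p of 0.05 or less the count was 1, Mylip, at 26.8 FPKM in DP1 and 36.7 in DP2 in the authors' deposited table (0.45 ± 0.21, q = 0.248), and 15.9% of all tested genes had such a p. Taken from the deposited statistic instead, the count was again 0. Abcg1 stood in the authors' deposited table at 56.8 and 66.8 FPKM (q = 0.687), Abca1 at 18.0 and 21.1 (q = 0.719) and Nr1h2 at 32.1 and 35.4 (q = 0.856). The order of the 4 groups for Abcg1, read within tables, was therefore Hdac3KO DP2, Hdac3KO DP1, WT DP1 and WT DP2, and the neighbours within a genotype did not differ at a q of 0.05. Abca1 had both Hdac3KO groups above both WT groups, again with no called difference within a genotype. Abcg1 lay above Abca1 everywhere, by 2.06 to 3.56 times in FPKM.

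Whether the genotype difference itself changed between stages was asked by subtracting the DP1 change from the DP2 change (normal test, two-sided, adjusted over 10144 genes). For Abcg1 the difference, DP2 minus DP1, was 0.76 ± 0.47 (recomputed q = 0.374, interval -0.16 to 1.68), and for Abca1 -0.02 ± 0.36 (recomputed q = 0.982, interval -0.73 to 0.68). Nr1h2 gave 0.91 ± 0.35 (recomputed q = 0.132, interval 0.22 to 1.60) and Mylip 0.27 ± 0.34 (recomputed q = 0.711). For Nr1h2 the deposited statistics were -0.96 in DP1 and 0.98 in DP2, so an interval from them would be wider. Whether it would leave out 0 was not computed. So 0 of the 4 passed, against 2.08% of all genes, and 1 of 4 (Nr1h2) had an unadjusted p of 0.05 or less, where 18.6% of all genes had one. The DP2 SE of Abca1 and Abcg1 come from a p at its smallest value, so the true p may be smaller. For all 4 genes the deposited statistics would give larger SE and wider intervals than those given here, and these were not computed. Taken instead over the stage changes of the same libraries, where no member's p was at its smallest value, 0 passed, against 3.13% of 9969 genes. On that route 2 had an unadjusted p of 0.05 or less, against 22.1% of all genes, Nr1h2 (1.04 ± 0.35, recomputed q = 0.068) and Abcg1 (0.88 ± 0.35, recomputed q = 0.12). Neither route was taken relative to the median gene, so each difference includes the shift between the medians. These were -0.11 and 0.12 for the genotypes in DP1 and DP2, and -0.33 and -0.01 for the stages in WT and Hdac3KO.

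**Figure D4:**
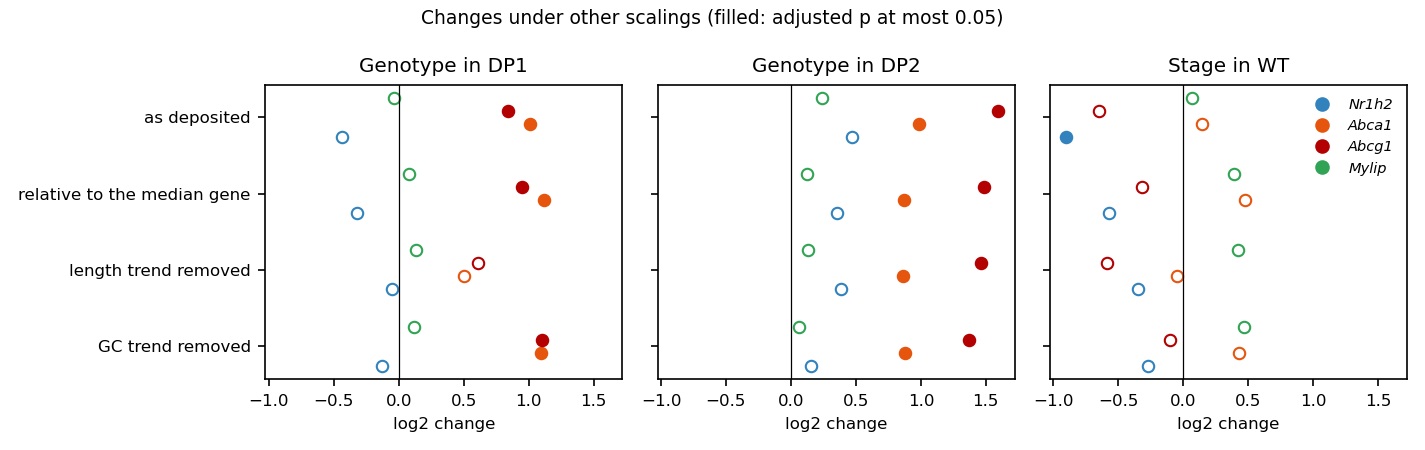
Log2 change (horizontal axis) of the 4 tested genes as deposited, relative to the median gene, and with the trend on transcript length or GC content removed (vertical axis), for both genotype comparisons and the stages in WT; filled points have a q of 0.05 or less. Abca1 and Abcg1 stay filled under every scaling shown in DP2, lose their calls with the length trend removed in DP1, and Nr1h2 keeps its call in the WT stages only as deposited.

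Other LXR targets did not move as one set. Of 17 such genes outside the members 8 were tested in each genotype comparison, with 1 higher and 2 lower in DP1 (median -0.16, all genes -0.08) and 1 higher and 0 lower in DP2 (median 0.02, all genes 0.08). The shares over all tested genes were 10.7% higher and 12.9% lower in DP1, and 6.44% and 4.32% in DP2. The medians cover genes with at least 1 FPKM in either group. The higher gene was Arl4c in both, which encodes a small GTPase that LXR induces in macrophages and that aids cholesterol efflux. Arl4c stood in the authors' deposited tables at 35.3 (WT) and 61.2 FPKM (Hdac3KO DP1) (0.79 ± 0.26, q = 0.0153) and at 23.8 and 70.7 in DP2 (1.57 ± 0.39, q = 0.00134). The lower genes of DP1 were Smpdl3a, a secreted phosphodiesterase, at 5.62 and 1.82 FPKM (-1.62 ± 0.51, q = 0.0109), and Apoe, the apolipoprotein of cholesterol transport, at 8.996 and 4.79 (-0.91 ± 0.35, q = 0.0398), as the authors' deposited table lists them. The calls of Smpdl3a and Apoe ended with the length trend removed (recomputed q = 0.0803 and 0.511), while that of Arl4c remained. A different gene of the list was then called lower in DP1, so the list had 1 higher and 1 lower. From WT DP1 to WT DP2, Arl4c went from 40.4 to 22.6 FPKM (q = 0.0175) and Apoc1 from 1.05 to 6.03 (q = 0.0301) in the authors' deposited table, and relative to the median gene Arl4c no longer passed (recomputed q = 0.201). Macrophages also express Apoc1, and macrophage markers other than Itgam summed to 7.64 FPKM in WT DP1 and 13.3 in WT DP2, whose part in the Apoc1 value was not tested. Of the 8 tested in the WT stages 1 was called higher and 1 lower, where 5.56% of all tested genes were higher and 16.8% lower. Of the 6 tested in the Hdac3KO stages, 0 were called by the authors' Cuffdiff test, and 0 had an unadjusted p of 0.05 or less. Over all tested genes there, 1.78% were called higher and 4.65% lower, and 15.9% had such a p.

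At the deposited q the lipogenic branch was not called between genotypes. Srebf1, the transcription factor through which LXR drives fatty acid synthesis, stood in the authors' deposited tables at 30.4 (WT) and 27.2 FPKM (Hdac3KO DP1) (q = 0.851) and at 19.6 and 28.7 in DP2 (q = 0.558). Its stage values were 34.7 and 18.6 FPKM in WT (q = 0.251) and 27.1 and 26.02 in Hdac3KO (q = 0.978), per the authors' deposited tables. Fasn, the fatty acid synthase, stood in the authors' deposited tables at 16.5 and 11.1 FPKM in DP1 (q = 0.077) and 12.9 and 11.4 in DP2 (q = 0.729), and the desaturase gene Scd2 at 91.5 and 123.8 (q = 0.205) and 69.9 and 106 (q = 0.0839). So of the 3 genes that share the DR4 letters shown above, Abca1 was called at the deposited q and Fasn and Srebf1 were not. Over all 51 genes with the relaxed DR4 in a window, 27 were in the tables, 10 were tested in DP1 with 1 higher and 1 lower, and 11 in DP2 with 2 higher and 0 lower. Beside Abca1 these were Tmco4, at 4.83 and 2.15 FPKM in DP1, and Scly, at 2.15 and 7.08 in DP2 of the authors' deposited tables, named after their values were seen. The shares over all tested genes were 10.7% higher and 12.9% lower in DP1, and 6.44% and 4.32% in DP2.

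**Figure D5:**
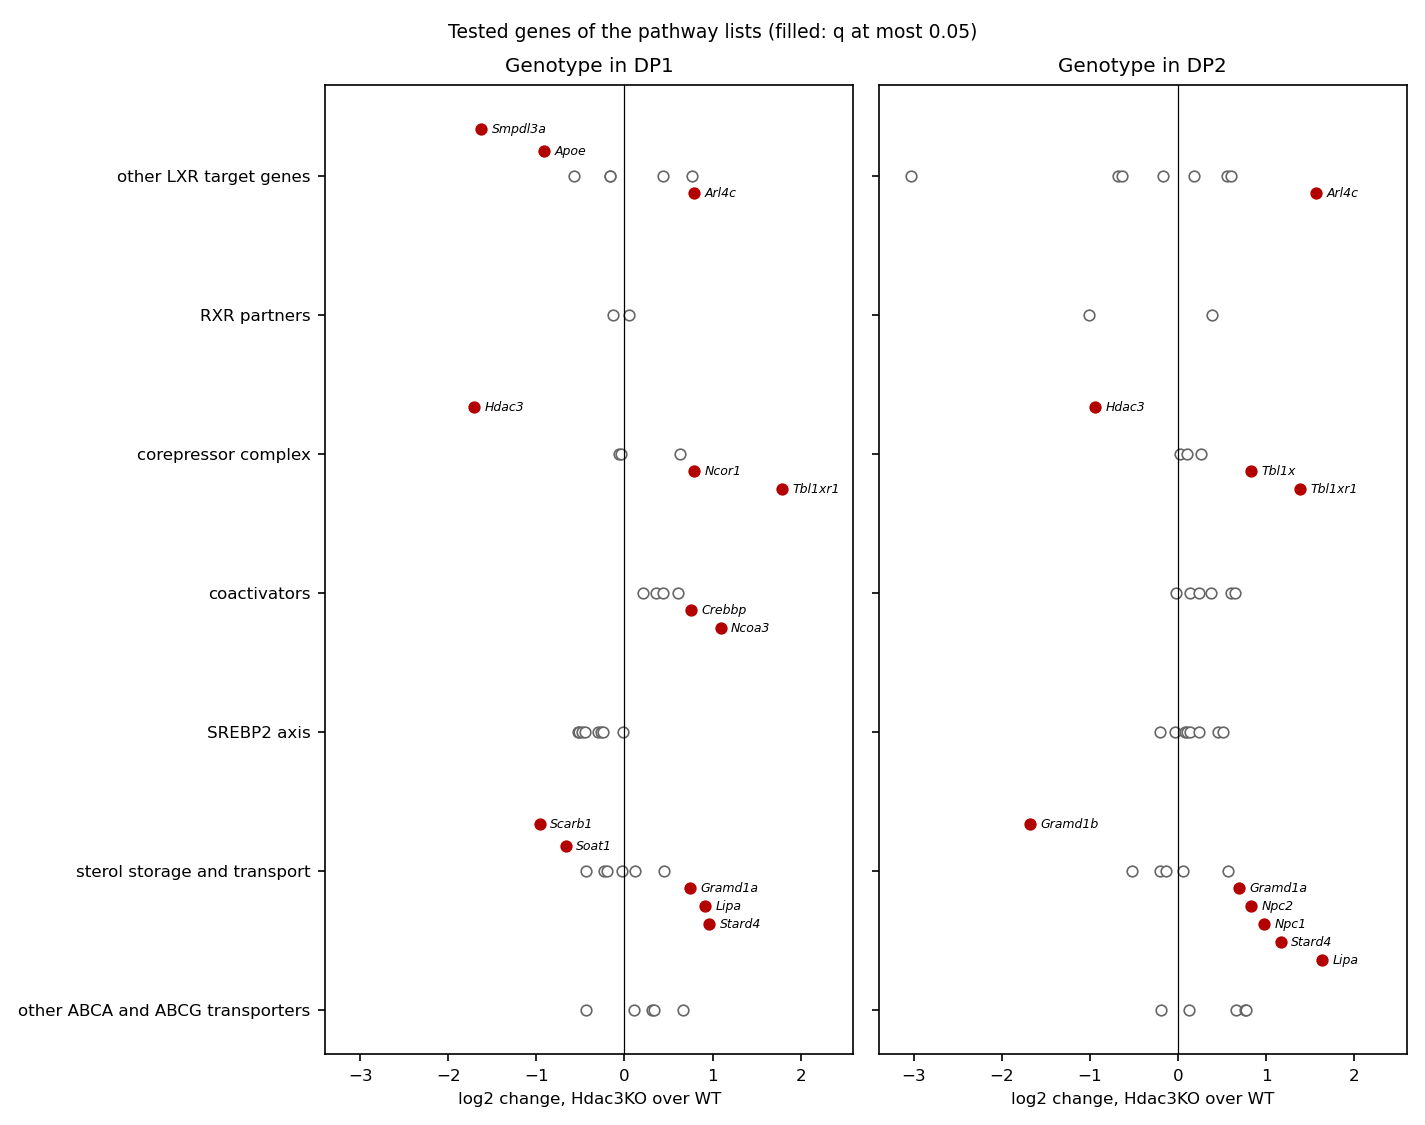
Log2 change of Hdac3KO over WT (horizontal axis) for the tested genes reported here of 7 pathway lists (vertical axis) in DP1 and DP2; filled, named points have a deposited q of 0.05 or less, and called points are shifted vertically so that names can be read. Arl4c, Lipa, Stard4 and Gramd1a are filled to the right of 0 in both panels, and no SREBP2 axis gene drawn is filled in either.

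Of the receptors that Mylip removes, the apolipoprotein E receptor gene Lrp8 and the related Vldlr are given here. Lrp8 stood in the authors' deposited tables at 5.98 to 8.62 FPKM, with the lowest q at 0.217, and Vldlr was under 1 FPKM and untested. The SREBP2 axis, which senses low sterol and drives sterol synthesis and uptake, gave 0 calls of 9 in each genotype comparison (medians -0.30 in DP1 and 0.14 in DP2) by the authors' Cuffdiff test, with 1 and 2 genes at an unadjusted p of 0.05 or less. Such a p was held by 35.8% of all tested genes in DP1 and 23.4% in DP2. In the WT stages 7 of 9 were lower (median -0.91, all genes -0.24), where 16.8% of all tested genes were. In the Hdac3KO stages 2 of 9 were lower (median -0.53, all genes 0.01), where 4.65% of all tested genes were. The WT count went to 4 relative to the median gene, 4 with the length trend removed, 3 with the GC trend removed and 4 from the deposited statistic. The isomerase gene Idi1 fell from 28.8 to 9.03 FPKM in WT and from 18.9 to 8.26 in Hdac3KO, Sqle from 10.3 to 3.34 in WT, and Srebf2 from 46.7 to 22.2 in WT, in the authors' deposited tables. Ch25h, which makes 25-hydroxycholesterol, reached at most 0.106 FPKM in the authors' deposited tables.

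Several genes that move sterol inside the cell were higher with Abca1 and Abcg1. Over all tested genes 10.7% were called higher and 12.9% lower in DP1, and 6.44% and 4.32% in DP2. Of 11 genes of sterol storage and transport, 3 were higher and 2 lower in DP1 (median -0.03), and 5 higher and 1 lower in DP2 (median 0.57). Relative to the median gene 2 were called higher in DP2, with the GC trend removed 2, with the length trend removed 3 and from the deposited statistic 2, which gave 1 in DP1. Lipa, the lysosomal lipase that frees cholesterol from its esters, stood in the authors' deposited tables at 47.3 (WT) and 89.3 FPKM (Hdac3KO DP1) (0.92 ± 0.25, q = 0.00255) and at 36.7 and 113.7 in DP2 (1.63 ± 0.40, q = 0.00134). Stard4, a cytosolic sterol carrier, stood in the authors' deposited tables at 12.5 and 24.2 FPKM in DP1 and 8.96 and 20.1 in DP2, and Gramd1a, a sterol carrier of the endoplasmic reticulum, at 45.2 and 75.6 and at 71.2 and 115. In DP2 the lysosomal cholesterol exporters Npc1 (11.6 and 22.8 FPKM, q = 0.0433) and Npc2 (15.6 and 27.7 FPKM, q = 0.0163) were also called higher by the authors' deposited table. Npc1 lost its call relative to the median gene (recomputed q = 0.0887) and with the length or GC trend removed (recomputed q = 0.0982 and 0.0614). The counts above show that Npc1 was not alone in this among the 5 called higher. Gramd1b, a close relative of Gramd1a, went the other way, at 16.8 (WT) and 5.25 FPKM (Hdac3KO DP2) (-1.68 ± 0.41, q = 0.00134 in the authors' deposited table). In DP1 Soat1, which stores cholesterol as ester, fell from 74.2 to 46.8 FPKM, and the lipoprotein receptor Scarb1 from 6.97 to 3.58, as listed in the authors' deposited table, and Scarb1 did not pass with the length trend removed (recomputed q = 0.0555). From the deposited statistic 0 genes of the list were called lower in DP1, so both calls ended, and relative to the median gene 1 was. In the WT stages 1 of the 11 was higher and 1 lower, Gramd1b (3.01 to 16.02 FPKM) and Scarb1 (7.93 to 2.31), and in the Hdac3KO stages 1 was higher, Gramd1b (1.94 to 4.75), in the authors' deposited tables. Over all tested genes 5.56% were higher and 16.8% lower in the WT stages, and 1.78% and 4.65% in the Hdac3KO stages.

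Other genes of the same transporter subfamilies were not called between genotypes at the deposited q, though 4 of the 5 tested had values above 0 at both stages. Of 20 other ABCA and ABCG genes 5 were tested in each genotype comparison and 0 were called by the authors' Cuffdiff test. The medians were 0.31 in DP1 and 0.39 in DP2 (all genes -0.08 and 0.08), with 1 gene at an unadjusted p of 0.05 or less in each. Of all tested genes 35.8% had such an unadjusted p in DP1 and 23.4% in DP2. The deposited statistic called 1 higher in each comparison. With the length trend removed 1 was called lower and 0 higher in DP1, and 0 in DP2. Abcg2 stood in the authors' deposited tables at 7.25 and 11.5 FPKM in DP1 (q = 0.116) and at 9.06 and 15.5 in DP2 (q = 0.265), and Abcg3 at 59.1 and 74.6 (q = 0.346) and 61.6 and 67.1 (q = 0.823). The difference between these genes and the members was not tested.

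Parts of the machinery that acts on LXR also differed between genotypes. Over all tested genes 10.7% were called higher and 12.9% lower in DP1, and 6.44% and 4.32% in DP2. An unadjusted p of 0.05 or less was held by 35.8% of them in DP1 and 23.4% in DP2. RXR partners gave 0 calls of 2 tested in DP1 and in DP2 by the authors' Cuffdiff test, with 0 and 1 at an unadjusted p of 0.05 or less. Rxrb stood in the authors' deposited tables at 17.5 and 16.02 FPKM in DP1 (q = 0.753) and at 13.2 and 17.3 in DP2 (q = 0.385), and Rxrg at 10.6 and 5.23 in DP2 (q = 0.0508), which was called lower relative to the median gene. Rxrg rose from 5.09 to 10.01 FPKM between the WT stages (q = 0.0344 in the authors' deposited table). In the corepressor list, 2 of 6 genes were higher and 1 lower (Hdac3 itself) at each stage. From the deposited statistic the DP2 call of Hdac3 ended. Tbl1xr1, an NCoR complex subunit, was called at both stages with log2 changes of 1.79 ± 0.44 and 1.38 ± 0.34, while Ncor1 was at 83.6 and 145 FPKM in DP1 (q = 0.0322) in the authors' deposited table and lost its call with the length trend removed (recomputed q = 0.47). Of 6 coactivators 2 were higher in DP1, Ncoa3 at 11.9 and 25.5 FPKM and Crebbp at 47.0 and 79.6 in the authors' deposited table, and 0 in DP2, where 2 had an unadjusted p of 0.05 or less. Crebbp was not called with the length trend removed (recomputed q = 0.623). Tbl1x, another subunit, was the second higher corepressor gene of DP2 (0.83 ± 0.23), and its chromosome is not given here. Its genotype difference cannot be told apart from the sex difference of the pools. From the deposited statistic the DP1 calls of Arl4c, Lipa, Gramd1a, Ncoa3, Ncor1 and Crebbp ended as well, with recomputed q from 0.175 to 0.327.

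The genes whose 4 log2 changes lay nearest to those of each called member were found among 9828 genes, by Euclidean distance on the log2 scale over the 4 tables, which share their groups in pairs. For Abcg1 the nearest was Lipa at 0.0881, followed by Dirc2 at 0.147 and Fbrs at 0.148, and Arl4c ranked 6 at 0.255. Near Abca1 lay Ptpre at 0.103 and Eps8l1 at 0.13. Nr1h2 had Unc119b at 0.0475, Tbc1d17 at 0.0698 and Ptpn18 at 0.0701. Abca1 and Abcg1 were 1.02 apart, where Abcg1 ranked 1288 among the genes nearest to Abca1.

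Macrophages express Abca1 and Nr1h3 strongly, so markers of other cells were read beside these results. The defining DP markers were abundant in every group, for example Cd4 at 198 to 409 FPKM in the authors' deposited tables. Of 10 such markers the authors' Cuffdiff test called 0 between genotypes in DP1, with 1 at an unadjusted p of 0.05 or less, where 35.8% of all tested genes had one. In DP2 4 of 10 were higher in Hdac3KO, among them Cd4, Cd8b1 and Rag2, where 6.44% of all tested genes were. In the WT stages 6 of 10 were lower, where 16.8% of all tested genes were. Their part in the DP2 differences of Abca1 and Abcg1 was not tested. Of 14 macrophage and monocyte markers 13 were in the tables, and their summed level was 9.13 (WT) and 16.7 FPKM (Hdac3KO DP1), and 15.4 and 27.0 in DP2. Of these, 2 were tested in DP1 and 3 in DP2, so most could not be called. Itgam was the 1 called marker, at 2.40 and 9.58 FPKM and at 1.60 and 15.7, in the authors' deposited tables. Without it the sums were 6.73 and 7.14 in DP1 and 13.8 and 11.3 in DP2. Csf1r, the receptor that defines macrophages, stood in the authors' deposited tables at 0.201 to 0.573 FPKM, and Cd14 was listed at 0 in both DP1 groups of the DP1 table and reached 0.0916 at most. Of dendritic, B, NK, erythroid and stromal cell markers, 1 per list was tested in each genotype comparison, and 3 of thymic epithelium. Most of these markers were untested and could not be called. Among all of them, 3 were called between genotypes in DP1 and 0 in DP2. These were Psmb11 (3.21 and 7.30 FPKM), Gzma (66.0 and 37.1) and Alas2 (0.676 and 2.51) in the authors' deposited table, and their part in the results was not tested. Over all tested genes 10.7% were called higher and 12.9% lower in DP1, and 6.44% and 4.32% in DP2. Fewer cells of a type and less RNA per cell cannot be told apart in such bulk samples.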

How the data were processed

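The 5 genes and all gene lists were chosen with earlier results of these data known. Per the submitters' processing notes, reads were processed with Trimmomatic 0.32, TopHat2 2.0.11 and Cuffdiff 2.1.1 on mm10, and settings and annotation are not given in the sources used here. Each deposited table gives every gene 1 FPKM in each of its 2 groups, scaled within that table. The authors' deposited p-value and q-value come from Cuffdiff (q was checked to be the Benjamini-Hochberg adjustment), and its test statistic is the deposited score. Log2 changes were computed from the FPKM, since 25 symbols and many log2 entries were damaged by a spreadsheet. SE is the absolute log2 change over the normal quantile of p, and intervals cover 95%. Differences of changes were tested with a normal test, adjusted with Benjamini-Hochberg over all genes, and the procedure was tested on simulated data. The simulated p were normal by construction, so that check cannot show whether the deposited p are. For the 4 tested members the deposited statistics would give larger SE than the deposited p. Trends on transcript length and GC content (longest transcript, GENCODE M21, known for 90.2% to 90.4% of tested genes) were removed by lowess (fraction 0.3, statsmodels 0.14.6) fitted where both groups reached 10 FPKM. Named list genes are the called genes with the largest changes, up to 4 per list and comparison where 1 group reached 1 FPKM, with receptor partners and direct targets named whether called or not, and others (among them Fasn, Scd2, Npc2, Abcg2, Abcg3, Ch25h and Soat1) were named after their values were seen. Starts in the files count from 0 and were raised by 1. Depth per library is unknown, so no counting interval is given. Some genes of the lists and of the nearest genes are not reported here, and the counts over a list include them. Counts of the pathway lists under other scalings were added after seeing the data.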

Additional observations from a re-analysis of the deposited data

How the results depend on the processing

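No paired analysis was possible because the deposited tables hold 1 value per group, so the replicate numbers carry no values, and for the same reason no library could be left out in turn. Among 5 genes, the number called in the DP1 genotypes went from 2 to 1 with a log2 change of at least 1, to 1 with the normal p of the deposited statistic and to 0 with the length trend removed. In the DP2 genotypes it went from 2 to 1 with a log2 change of at least 1. In the WT stages it went from 1 to 2 at a q of 0.10, and to 0 at a q of 0.01, with a log2 change of at least 1, relative to the median gene, with the length trend removed, with the normal p of the deposited statistic and with the GC trend removed (an alternative chosen after seeing the data). The other alternatives in these 3 comparisons, and all of them in the Hdac3KO stages and the interaction, left the counts at their values. Over the members' own values 11 lost and 1 gained its call among 212 recomputed values and 0 reversed, and 8 untested values of Nr1h3 shifted with the pseudocount. Among the other named genes 64 of 565 lost and 1 gained its call, 0 reversed, and 17 shifted with the pseudocount. Causes of these losses were not tested. With 1 value per group, low levels such as those of Nr1h3 and Rxra cannot be given an error.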
